A study of Caenorhabditis elegans with 2 samples.

Results

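The HSP70 and HSP110 chaperone genes of the nematode Caenorhabditis elegans were described here as 8 named genes, out of 46890 genes annotated on the 6 chromosomes and 19973 protein-coding ones. They were hsp-1, hsp-110, hsp-3, hsp-6, hsp-4, hsp-70, F44E5.4 and F44E5.5. For each gene, all peaks with a summit within 2000 bp of the 5' end were taken from the deposited ce11 lists. The 8 genes were chosen by name with the signals and ranks of these peaks already known, so their signals, ranks and counts are a description and were not tested.

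The data came from chromatin immunoprecipitation followed by sequencing (ChIP-seq) of NHR-11, a nuclear hormone receptor, tagged with the fluorescent protein eGFP. All samples were late embryos of strain OP305, which carries the mutation unc-119(ed3) on chromosome III and the transgene wgIs305. Both sexes were mixed, the age in hours was unknown, and whole embryos were used, so a signal is a sum over all cell types. There was a single group of 2 biological replicates, with no second condition and no heat treatment named in the labels. The promoter that drives the transgene was not given in the sources used here, and the depth of each library was unknown because the files hold peaks and not reads. The endogenous nhr-11 gene had no summit within 2000 bp in any of the 4 lists, and unc-119 had a pooled signal of 31.7 (rank 1959).

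HSP70 proteins bind unfolded stretches of other proteins and release them in a cycle driven by ATP. HSP110 proteins are relatives that exchange the nucleotide of HSP70 and help it to dissolve aggregates. Some members are made at all times in every compartment, while others are switched on by heat through heat shock factor HSF-1, which binds arrays of inverted GAA units (heat shock elements) in their promoters. The members were therefore read in classes, which come from general knowledge of the genes and not from these data. Constitutive here means made without stress as well, and such a gene may still be raised by stress. The constitutive class (4 genes) held hsp-1 of the cytosol, hsp-110, hsp-3 of the endoplasmic reticulum and hsp-6 of mitochondria. The heat-inducible class (3 genes) held hsp-70, F44E5.4 and F44E5.5. The last member, hsp-4, encodes the second HSP70 (BiP) of the endoplasmic reticulum and is induced by its unfolded protein response.

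The sequences below show the sites that carried the signal at these genes. They are the plus strand of ce11, 5′ to 3′, and capitals mark every array of at least 3 GAA or TTC units that alternate and repeat every 5 bases, the form of a heat shock element. The first is the larger part of the peak between F44E5.4 and F44E5.5 (chrII:11759332-11759631), shown because it holds 4 such arrays. The second is part of the hsp-110 peak (chrIII:8446995-8447194), which held 2 arrays. The third is the centre of the hsp-1 peak (chrIV:17278481-17278681), which held none, and the fourth is the hsp-1 promoter stretch with its array (chrIV:17278795-17278847), which lay outside that peak.
F44E5.4 and F44E5.5 site: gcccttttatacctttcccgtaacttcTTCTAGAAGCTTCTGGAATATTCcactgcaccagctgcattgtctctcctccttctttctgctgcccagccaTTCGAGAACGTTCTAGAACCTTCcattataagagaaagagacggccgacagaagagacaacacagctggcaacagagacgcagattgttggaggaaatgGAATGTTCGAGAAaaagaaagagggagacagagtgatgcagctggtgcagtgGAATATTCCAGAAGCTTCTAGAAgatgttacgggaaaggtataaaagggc
hsp-110 site: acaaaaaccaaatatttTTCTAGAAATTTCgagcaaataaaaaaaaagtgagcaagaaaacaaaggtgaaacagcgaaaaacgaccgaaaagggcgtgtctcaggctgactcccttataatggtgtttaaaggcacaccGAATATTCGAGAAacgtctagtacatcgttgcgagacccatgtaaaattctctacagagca
hsp-1 summit: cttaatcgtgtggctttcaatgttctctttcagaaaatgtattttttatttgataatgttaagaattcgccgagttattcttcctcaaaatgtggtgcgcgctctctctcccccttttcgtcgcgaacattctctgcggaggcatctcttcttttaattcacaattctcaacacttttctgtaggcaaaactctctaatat
hsp-1 promoter: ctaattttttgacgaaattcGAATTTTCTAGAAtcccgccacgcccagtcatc

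Strong peaks stood beside members of both classes. Peaks of the thresholded list, the 101 peaks that the authors kept as reproducible, lay within 2000 bp of 4 of the 8 members: the constitutive hsp-1 and hsp-110 and the heat-inducible F44E5.4 and F44E5.5. Over all protein-coding genes the share was 0.596%. Since F44E5.4 and F44E5.5 shared their peak, the 4 genes came from 3 sites. A pooled peak of any strength was present at 5 of the 8, the fifth being hsp-3, against 33.2% of protein-coding genes. The other members, hsp-6, hsp-4 and hsp-70, had no pooled peak in the window. Both shares of all genes are given for scale only, because the members were listed from these peaks.

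hsp-1, which encodes the main cytosolic HSP70, had the strongest peak of the family. Its pooled signal, in the unit of the authors' peak caller, was 106 (rank 8 of 9931), with 45.9 in replicate 1 (rank 21 of 25795) and 62.4 in replicate 2 (rank 7 of 29222). Both replicates placed it near the top of their lists. Of the 6626 protein-coding genes with a pooled peak in the window, 7 had a stronger one, and the median of all was 26.8. The peak covered chromosome IV 17278403 to 17278758, and its intergenic summit was placed 378 bp before the start of hsp-1 (17278959 to 17281330, plus strand). The replicate summits lay 412 and 366 bp upstream, 46 bp apart. Its pooled false discovery rate was 0.0189.

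The hsp-1 site had other genes around it. Its summit lay 168 bp past the 5' end of the noncoding RNA gene F26D10.23, closer than to that of hsp-1. The lectin-like gene clec-196 (1625 bp) and the snoRNA gene F26D10.24 (1465 bp) also began within 2000 bp. Replicate 1 had a weaker peak at 210 bp upstream (11.9), which overlapped the strong peak of replicate 2 by 207 bp. Replicate 2 had others at 1464 bp upstream (8.82) and 1895 bp downstream (10.5), which replicate 1 did not repeat. A pooled peak of 23.3 (rank 7669) fell in the 3' UTR of hsp-1, 2310 bp from the 5' end and so outside the window.

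hsp-110 encodes the HSP110 relative, and its peak was weaker than that of hsp-1. The pooled signal was 70.3 (rank 30), with 34.4 in replicate 1 (rank 129) and 29.6 in replicate 2 (rank 110). Both replicates thus ranked it below their own strongest 101, while the pooled list ranked it well within. The peak lay on chromosome III (8446995 to 8447350), with an intergenic summit 264 bp upstream of hsp-110 (8443910 to 8446909, minus strand). The replicate summits, at 332 and 263 bp upstream, were 69 bp apart. Replicate 2 also had a peak of 8.04 in a coding exon of hsp-110. The pooled false discovery rate of the strong peak was 0.0508, and in the replicates it was 0.0272 and 0.0868.

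The hsp-110 summit also belonged to a divergent promoter. rpn-3, a subunit gene of the proteasome regulatory particle, began on the other strand with its 5' end 180 bp from the summit, closer than that of hsp-110. The noncoding RNA gene C30C11.14 was the closest, at 78 bp. The summit was upstream of all of these genes, so its position does not assign it to one of them. A pooled peak of 26.7 (rank 4389) fell in the 3' UTR of hsp-110, outside the window.

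F44E5.4 and F44E5.5 encode heat-inducible cytosolic HSP70 proteins and are transcribed away from each other. Their shared peak had a pooled signal of 77.8 (rank 20), with 41.9 in replicate 1 (rank 35) and 36.6 in replicate 2 (rank 42). It ranked within the strongest 101 of both replicates, as the hsp-1 peak did, and 26 protein-coding genes had a stronger pooled peak. The peak lay on chromosome II (11759332 to 11759687), almost filling the 350 bp between the 5' ends. Its summit was 199 bp upstream of F44E5.4 (11757107 to 11759311, minus strand) and 152 bp upstream of F44E5.5 (11759662 to 11761861, plus strand). The replicate summits were 17 bp apart, and no other peak of any list lay within 2000 bp of either 5' end. The pooled false discovery rate was 0.0189.

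These genes are copies of each other. All 1935 coding bases of F44E5.4 and F44E5.5 were identical, so reads from the coding parts cannot be told apart, whereas the summit of the peak was intergenic. The sequence between them was also mirrored. A left arm (11759312 to 11759432, 121 bp) matched the reverse complement of a right arm (11759526 to 11759651, 126 bp) at 88.3% of 128 aligned positions. The inverted repeat can be read from the printed sequence, which opens and closes on the same letters read from opposite strands. None of the peaks at hsp-1, hsp-110, hsp-3 or the F44E5.4 and F44E5.5 pair matched another place in the genome over at least 50 bp at 90% identity.

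**Figure D1:**
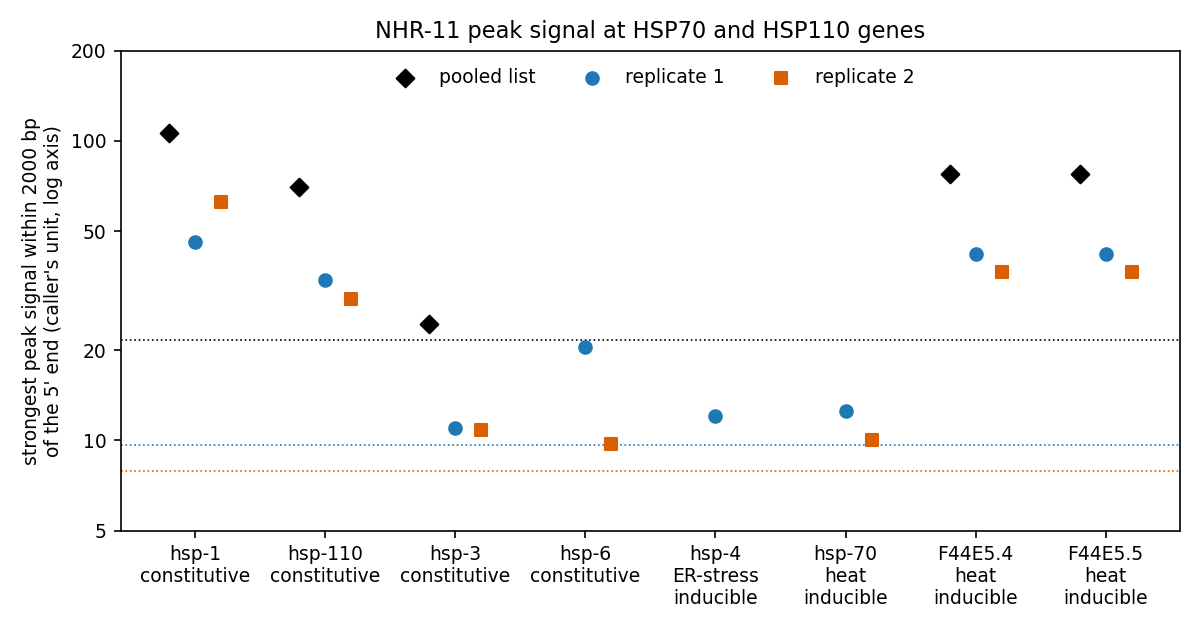
Strongest peak signal within 2000 bp of the 5' end of each member (vertical axis, caller's unit, log scale), for the pooled list (diamonds), replicate 1 (circles) and replicate 2 (squares). Dotted lines mark the weakest peak of each list. hsp-1, hsp-110 and the pair F44E5.4 and F44E5.5, which share 1 peak, stand apart from the other members, whose pooled signals are below the list's median or missing, and of which hsp-6 in replicate 1 (20.5) is the highest replicate value.

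The third heat-inducible member, hsp-70, had no such peak. This gene on chromosome I (9320325 to 9322519, minus strand) is the member closest in sequence to the F44E5.4 and F44E5.5 pair, with 80.3% of aligned coding positions identical to either. It had no pooled peak within 2000 bp, and the nearest pooled summit lay 10318 bp away. Replicate 1 listed a peak of 12.5 (rank 13718) at 1642 bp upstream, in a coding exon of uggt-2. Replicate 2 listed one of 10.01 (rank 17657) at 362 bp upstream, in an intron of the same gene. The replicate peaks did not overlap, and both were in the lower-ranked part of their lists, with false discovery rates of 0.857 and 0.881.

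The genes of the endoplasmic reticulum had no strong peak either. hsp-3 and hsp-4 both encode BiP, the HSP70 of that compartment, and shared 77.3% of aligned coding positions. At hsp-3, on chromosome X (6089028 to 6092124, minus strand), the pooled signal was 24.4 (rank 6324), with 10.99 in replicate 1 (rank 19346) and 10.8 in replicate 2 (rank 14507). The pooled value was below the median of the pooled list, 25.9, with a false discovery rate of 0.892. The replicate summits were 5 bp apart. A pair of weaker replicate peaks closer to the gene (10.8 at 109 bp and 8.23 at 414 bp upstream) overlapped by 58 bp, and replicate 2 had another of 7.95 within the gene. The summit was 1704 bp upstream of hsp-3 and inside an intron of C15H9.5, whose own 5' end was 528 bp away. At hsp-4, on chromosome II (7350112 to 7352645, minus strand), the only peak was one of 12.03 in replicate 1 (rank 15359), in the 5' UTR of the gene. Replicate 2 had none there, and the nearest pooled summit was 3616 bp from the 5' end.

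hsp-6, the mitochondrial HSP70 gene on chromosome V (4824124 to 4826760, minus strand), had replicate peaks that did not meet. Replicate 1 gave a peak of 20.5 (rank 1976) at 668 bp upstream, in a coding exon of the neighbouring gene C37H5.5. In replicate 2 the 3 peaks had signals of 9.75, 9.55 and 9.38, at 1491 bp downstream and 90 and 1212 bp upstream. The nearest pooled summit was 19702 bp from the gene's 5' end, the farthest among the members.

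**Figure D2:**
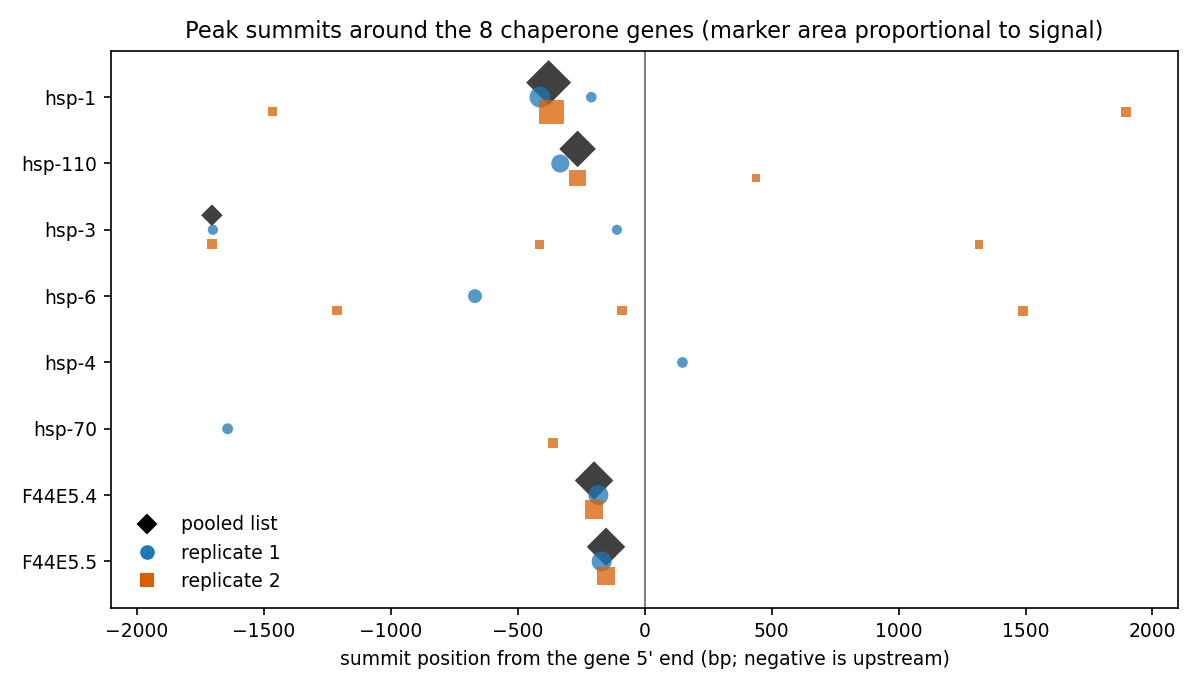
Summits within 2000 bp of the 5' end of each member (horizontal axis, bp, negative values upstream) in the pooled list (diamonds) and the replicates (circles and squares), with marker area proportional to signal. Large markers of all 3 lists coincide at 152 to 412 bp upstream of hsp-1, hsp-110, F44E5.4 and F44E5.5, while the small markers of the other members are scattered, apart from those at 1704 bp upstream of hsp-3.

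Where the replicates had overlapping peaks at a member, the strongest such pair had similar signals, least so at hsp-1. Overlapping peaks of replicates 1 and 2 were present in the window of 5 of the 8 members, against 30.9% of protein-coding genes. With both peaks among the strongest 2000 of their list, the count was 4 of 8 (hsp-1, hsp-110, F44E5.4 and F44E5.5), against 1.56% of protein-coding genes. For the strongest overlapping pair, the log2 ratio of replicate 1 to replicate 2 was -0.44 at hsp-1, the only one of these member peaks to be higher in replicate 2. It was 0.22 at hsp-110, 0.20 at F44E5.4 and F44E5.5 and 0.03 at hsp-3. Over the 9134 matched peaks of the genome, the median was 0.25 with an SD of 0.53, and over 100 thresholded peaks seen in both replicates the SD was 0.71. The hsp-1 ratio lay 1.31 SD from the median of all matched peaks, and the others at most 0.41 SD from it. In absolute size, 56.1% of matched peaks had a smaller log2 ratio than hsp-1. The replicate summits of the strongest pair, 5 to 69 bp apart at these members, were closer than the genome-wide median of 109 bp. That median covers all matched peaks, weak ones included, and none was computed for strong peaks alone. How the authors scaled the signal between replicates was not stated, so a ratio also holds any difference in depth.

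**Figure D3:**
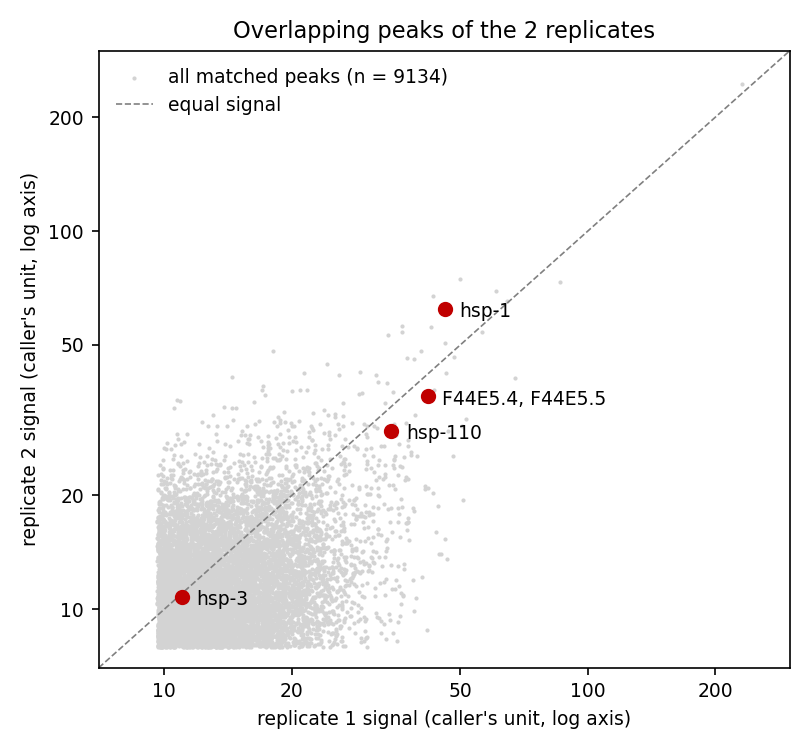
Signal in replicate 1 (horizontal axis) against replicate 2 (vertical axis), both in the caller's unit on log scales, for 9134 overlapping peaks (grey) and for the member sites (red); the dashed line marks equal signal. hsp-1, hsp-110 and the F44E5.4 and F44E5.5 site lie near the line at the strong end, and hsp-3 lies near it at much lower signal (10.99 and 10.8).

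Constitutive and heat-inducible members did not separate by signal. The strongest pooled signals of the constitutive class were 106, 70.3 and 24.4, with hsp-6 missing. Those of the heat-inducible class were 77.8 for a single site shared by F44E5.4 and F44E5.5, with hsp-70 missing. The classes overlapped, since the heat-inducible site ranked between hsp-1 and hsp-110. The ratio of the constitutive to the heat-inducible median over members with a pooled peak was 0.903, but it was 1.13 within 1000 bp, where hsp-3 drops out. Over the same members it was 0.821 in replicate 1 alone and 0.808 in replicate 2 alone. With all members that had a peak in the replicate, which adds hsp-6 and hsp-70, it was 0.656 and 0.551. With 7 genes, 1 shared site and no second condition, this ratio is no measure of a difference between the classes. Within each class, members with a strong peak stood beside members with none.

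Heat shock elements were frequent in the promoters of the family, with or without a peak. In the 300 bp from 250 before to 50 after the 5' end, an array of at least 3 units was found at 5 of the 8 members, namely hsp-1, hsp-110, hsp-70, F44E5.4 and F44E5.5. The same array was present in 1.97% of all protein-coding promoters of this length. Its parts, the 2-unit motifs GAANNTTC and TTCNNGAA, were each found at 6 of 8 members, against 18.5% and 18.9% of promoters. They were searched on both strands, each is its own reverse complement, and within an array they overlap each other. The hsp-6 gene had an array farther out, 301 bp upstream, and hsp-3 and hsp-4 had none within 500 bp upstream. F44E5.4 and F44E5.5 enter each of these counts separately, although their promoters share the sequence between them.

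The arrays coincided with the peak at some members and not at others. In the F44E5.4 and F44E5.5 peak there were 4 arrays with 5, 5, 3 and 5 units, 18 units in all, as the capitals in the printed sequence show. Among the 9931 pooled peaks, 6 (0.0604%), this one included, held at least 10 units in arrays, and 2.16% held any array. The array nearest to the summit was centred 26 bp from it. In the hsp-110 peak the 2 arrays of 3 units were centred 33 and 155 bp from the summit. At hsp-1 the only array, at 138 bp upstream of the gene, lay 240 bp from the pooled summit and past the end of the pooled peak. A weak peak of replicate 1 (11.9, false discovery rate 0.889) covered that array. hsp-70 had an array of 3 units centred 67 bp upstream and no pooled peak. Of all 101 thresholded peaks, 4 (3.96%) held an array. Besides the F44E5.4 and F44E5.5 and hsp-110 peaks, these were a peak beside the noncoding RNA gene C30E1.9 and one with no gene 5' end within 2000 bp, both named after their values were seen. A match is a description of the sequence, and binding of HSF-1 was not measured here.

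**Figure D4:**
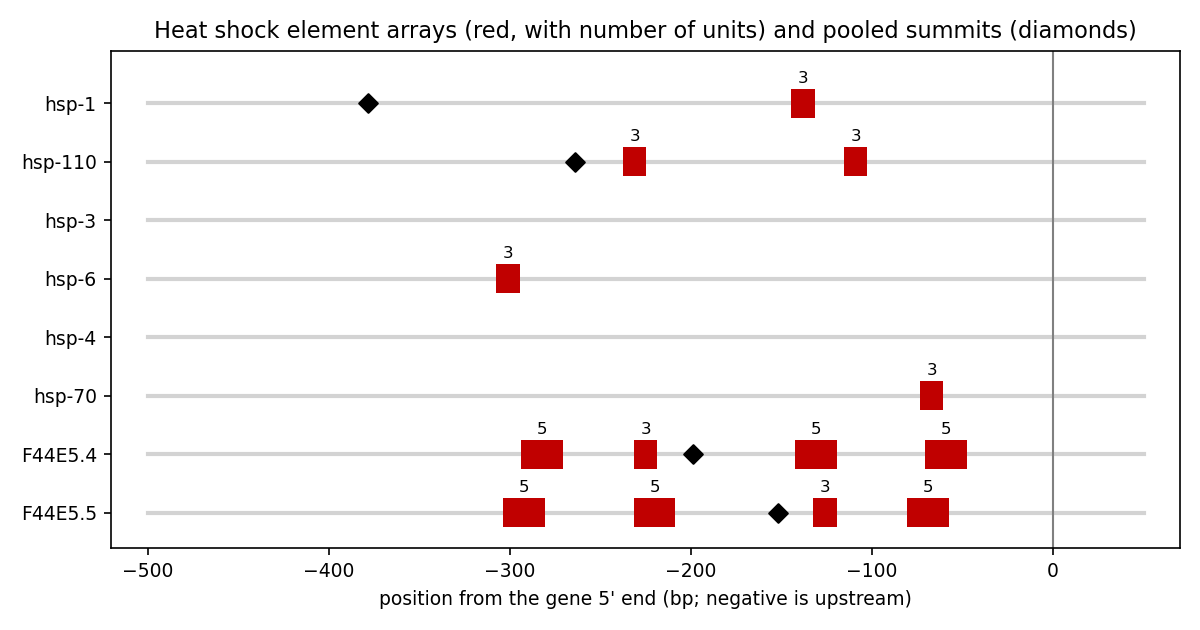
Arrays of alternating GAA and TTC units (red bars, with the number of units) from 500 bp before to 50 bp after the 5' end of each member (horizontal axis, bp), with pooled summits as diamonds. Summits lie between arrays at F44E5.4 and F44E5.5 and near one at hsp-110, while the hsp-1 summit is far from its array and hsp-6 and hsp-70 have an array with no pooled summit; the bars of F44E5.4 and F44E5.5 are the same 4 arrays seen from either gene.

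Other motifs were less even over the family. TGACGTG, a core letter string of unfolded protein response elements, was present in the promoters of hsp-3 and hsp-4, the genes of the endoplasmic reticulum, and in 2.93% of all promoters. Neither gene had a strong peak. The hormone receptor half-site AGGTCA was in no member promoter and in no pooled peak at a member. It was in 8.27% of all promoters and 8.24% of pooled peaks, so none in so few sequences is near these shares. GAGAGA, on the other strand of the printed hsp-1 sequence, started 2 and 4 bp past the summit in overlapping matches. It was found within 50 bp of 14.9% of thresholded and 7.66% of pooled summits, but of no other pooled summit at a member. The promoters of hsp-3 and F44E5.4 held it, 2 of 8, against 21.8% of all promoters. TATAAA was in 5 of 8 member promoters, against 37.9% of all, and GGGTGTC in the hsp-3 promoter alone, against 1.22%. The GC content of the F44E5.4 and F44E5.5 peak was 45.5%, above 95.5% of pooled peaks. That of hsp-1 was 37.1% and that of hsp-110 30.9%, beside a median of 37.01% over thresholded peaks.

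The rest of the chaperone system was read in the same window. The pooled list holds background regions as well as peaks. Only 30 of its 9931 entries had a false discovery rate of at most 0.05, and the highest rate was 0.96. A pooled summit is therefore a listed position and not by itself a reproducible peak. Of 87 other listed chaperone, cochaperone and stress-regulator genes, 86 were annotated. Of these, 48 (55.8%) had a pooled summit within 2000 bp, against 33.2% of protein-coding genes. Genes that shared a summit were counted separately, as in that share, so the 48 genes stand for fewer sites. A thresholded summit was found at 0 of the 86 genes, which is near the share of 0.596% over protein-coding genes. That count became 1 with transcript 5' ends (dnj-20) and 1 with the strongest peaks of replicate 1 alone (dnj-14). All 4 other HSP70 and HSP110 relatives had a pooled peak, with a median of 31.9 and the strongest at F11F1.1 (35.3, rank 1140). Among 16 small heat shock protein genes, 7 had one, with a median of 24.1 and the strongest at F08H9.3 and F08H9.4, which shared it (25.1). The HSP90 gene hsp-90 (listed as daf-21) had a signal of 31.4, and its relatives enpl-1 and hsp-75 had no pooled peak. Of 9 chaperonin genes 5 had a pooled peak, led by hsp-60 of mitochondria (36.5). J-domain proteins, the partners that hand clients to HSP70, had pooled peaks at 18 of 29 genes, led by dnj-28 (44.9, rank 319) when distances were taken from gene 5' ends. With transcript 5' ends dnj-20 had the stronger peak, 70.1 (rank 31) in place of 42.5. Of 12 cochaperone genes 6 had one, led by bag-1 (46.8, rank 266), a nucleotide exchange factor of HSP70. The regulators had 7 of 13, led by the eIF2α kinase gene pek-1 (30.7). The gene hsf-1 was among the regulators that had none, as is the case for most protein-coding genes. For scale, the weakest thresholded peak of the genome had a signal of 55.2 and the strongest peak outside that list 55.1.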

How the data were processed

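Per the deposited file descriptions, the authors called peaks and background regions for each replicate and for both pooled, each against a control, on ce11 and ce10, and derived the thresholded list from the pooled and replicate lists. The peak signal is the authors' deposited value, with its scaling not stated. The deposited −log10 column was read as the q-value (false discovery rate) of a peak within its list and turned back into a rate. Neither the aligner nor the caller nor its threshold is stated in those descriptions. The 4 ce11 lists were used, with 25795 peaks in replicate 1, 29222 in replicate 2, 9931 pooled and 101 thresholded, and the 4 ce10 lists were not, since no coordinates were converted.

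Summits were assigned to gene 5' ends of the Ensembl 115 annotation (WBcel235, the same assembly as ce11) within 2000 bp, counted from 1. Replicate peaks were matched by an overlap of at least 1 bp. Sequence came from the RefSeq WBcel235 genome, matches elsewhere from BLAST 2.17.0, and alignments from Biopython 1.88. The computations used Python 3.11.15, numpy 2.4.6 and pandas 2.3.3. The assignment and the matching were checked on simulated peaks. The members and lists were chosen with earlier results of these data known, so no test was made. The text names all members and every gene that begins within 2000 bp of a member's strongest pooled summit. It also names the strongest gene of each other list, nhr-11 and unc-119. Outside this rule, enpl-1, hsp-75 and hsf-1 are named as having no pooled peak. Other names are marked or give only a position. Alternatives were other windows, transcript 5' ends, a stricter false discovery rate, stricter replicate matching, other classes and leaving out each replicate. Those that set missing members at the lowest signal, or took single replicates over the members with a pooled peak, were added after the data were seen.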

Additional observations from a re-analysis of the deposited data

How the results depend on the processing

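No paired analysis was possible because there is a single group, with no second condition to pair. Of 33 alternatives, 9 moved a result. The ratio was called moved when it changed by at least 0.0738, the SD of its values in the 2 replicates (0.656 and 0.551). Those values include hsp-6 and hsp-70, which the main ratio does not. Among the counts, only a change from 0 was called moved, so the falls from 4 to 3 and from 5 to 4 below are not among the 9. The count of members with a thresholded summit stayed at 4 with windows of 1000 and 500 bp and with transcript 5' ends. It was 3 at a false discovery rate of at most 0.05 and with the 101 strongest peaks of either replicate alone, each time through the loss of hsp-110. Members with a pooled summit fell from 5 to 4 within 1000 bp, which drops hsp-3. The ratio of constitutive to heat-inducible signal, 0.903, was 1.13 within 1000 and 500 bp. It ranged from 0.551 to 0.656 when a replicate was left out, which also adds hsp-6 and hsp-70, and was 0.821 in replicate 1 and 0.808 in replicate 2 over the members with a pooled peak. It was 0.608 with members lacking a pooled peak at the lowest signal of the list, and 0.952 when F44E5.4 and F44E5.5 then counted as 1 locus. The count of 0 other chaperone genes became 1 with transcript 5' ends (dnj-20, signal 70.1, at 1223 bp) and ranged from 0 to 1 when a replicate was left out (dnj-14 at 1914 bp, from replicate 1 alone). Depth was unknown, so a missing peak shows only that none was listed.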

Other observations

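Because rpn-3 shared the hsp-110 site, the proteasome subunit genes were also counted, a list chosen after the data were seen. Of 33 annotated genes, 2 had a thresholded summit within 2000 bp, rpn-3 (signal 70.3, 180 bp) and rpn-8 (60.2, 1834 bp downstream of its 5' end), against 0.596% of protein-coding genes. Since rpn-3 prompted the list, its summit was fixed beforehand, and the share of all genes is given for scale only. A pooled summit was present at 15 of the proteasome genes (45.5%), against 33.2% of protein-coding genes, with a median strongest signal of 31.6. Sites with more than 1 gene 5' end were common in the thresholded list as well: of 84 thresholded peaks with any gene 5' end within 2000 bp, 60 had at least 2, and 37 had at least 2 of protein-coding genes.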
